A study of Mus musculus with 21 samples.

Results

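*Hcrt*, *Pmch* and *Lhx9* are 3 genes of neurons in the lateral hypothalamus, and they are described here in each of 21 mouse RNA-seq libraries. They were picked by gene symbol from the 21654 genes of the deposited count table, and each symbol matched 1 Ensembl identifier. The study set out to separate effects of diet and energy balance from those of body weight. It took punches of circumventricular hypothalamus from male mice (strain given as C57/B6J and C57/BL6, from Jackson Labs, aged 12 to 14 weeks when acquired), and all groups were kept awake with unfamiliar objects for 3 h and killed at ZT6. The group RC NoDS ate regular chow (RC) throughout (n = 5 libraries), and HFD NoDS ate a high-fat diet (HFD) throughout (n = 5). After a diet switch (DS), RC → HFD ate HFD in the final week following RC (n = 6), and HFD → RC ate RC following HFD (n = 5). Equal amounts of RNA from 2 mice made up a library, so the spread between libraries is a spread between pairs of mice.

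*Hcrt* encodes the precursor of the hypocretin (orexin) peptides, which are made by a small group of neurons of the lateral and perifornical hypothalamus that promote wakefulness and food seeking. *Pmch* encodes the precursor of melanin-concentrating hormone (MCH), made by a separate group of neurons that lie among and around the hypocretin neurons and are linked to feeding and REM sleep. *Lhx9* encodes a LIM-homeodomain transcription factor that is enriched in hypocretin neurons and is also found in other brain regions. The punches were aimed at the arcuate, ventromedial and paraventricular nuclei and not at the lateral hypothalamus. Before sequencing, the authors measured *Agrp*, *Pomc* and *Hcrt* in the punches and left out those in which *Agrp* and *Pomc* did not exceed *Hcrt* by enough. The level of *Hcrt* thus took part in choosing the libraries.

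The values are reads counted per gene after every library had been re-sampled to a common depth, and they summed to between 16380781 and 16390598 per library. *Hcrt* (ENSMUSG00000045471) lies on the minus strand at chr11:100622383-100624245 of the mm9 genome, and *Pmch* (ENSMUSG00000035383) on the plus strand at chr10:87553817-87555120. *Lhx9* (ENSMUSG00000019230) lies on the minus strand at chr1:140721763-140745153. The merged exons of *Hcrt* and of *Pmch* both span 749 bases and those of *Lhx9* span 5543. *Pmch* shares 435 exon bases with *Parpbp* (listed as 4930547N16Rik, ENSMUSG00000035365) on the opposite strand. *Parpbp* itself had 0 to 26 reads per library, with a median of 1. Libraries were prepared with a stranded kit, and whether the counting used the strand is not stated.

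On the scale of RPKM (reads over exon length and library total), the mean level over the 21 libraries was 87.9 for *Pmch*, 20.7 for *Hcrt* and 0.204 for *Lhx9*. *Pmch* was above *Hcrt* per length in each of the 21 libraries, from 1.23 times in HFD NoDS replicate 20 to 25.1 times in RC NoDS replicate 2. Both peptide genes thus had reads in every library, and the transcription factor gene was near the lower end of what the depth resolves, with a mean of 18.6 reads. A tested gene here belongs to the High Filter (a mean of at least 50 reads over the 21 libraries, 12768 genes) or to the wider Low Filter (at least 5 reads, 15884 genes). *Hcrt* and *Pmch* pass the High Filter, and *Lhx9* passes the Low Filter only.

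*Hcrt* was low in mice that never left RC and reached its highest counts in mice that never left HFD. In RC NoDS the 5 libraries held 75, 70, 94, 28 and 105 reads of *Hcrt* (74.4 ± 29.6, mean ± SD). In RC → HFD the lowest library held 58, the median was 200 and the highest held 355 (202 ± 127, n = 6). All RC NoDS libraries lay at or under 105 reads, and 4 of the 6 RC → HFD libraries lay above that value while replicates 10 and 11 lay within the RC NoDS range.

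The HFD → RC libraries held 437, 256, 215, 87 and 368 reads of *Hcrt* (273 ± 136, n = 5). Those of HFD NoDS held 93, 1051, 823, 187 and 234 (478 ± 430, n = 5). Replicates 20 and 21 of HFD NoDS stood above every other library of the study, and replicate 19 of the same group lay inside the RC NoDS range. In HFD → RC, replicate 16 (87 reads) did so too. The authors' supplement gives replicates 20 and 21 the highest shares of ribosomal RNA among the libraries, and replicate 20 the lowest share of mitochondrial reads. The next highest ribosomal share, close to these, belonged to RC → HFD replicate 10, which had the fewest *Hcrt* reads of its group (58). The mitochondrial share of replicate 21 lay inside the range of the other libraries. The part of these shares in the *Hcrt* values was not tested. No pair of groups separated without overlap, and in both HFD → RC and HFD NoDS 4 of 5 libraries exceeded every RC NoDS library. The share of all genes that do so was not counted. Fewer cells of a type in a punch and less RNA per cell cannot be told apart in these counts, for *Hcrt* or for the other genes below.

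**Figure D1:**
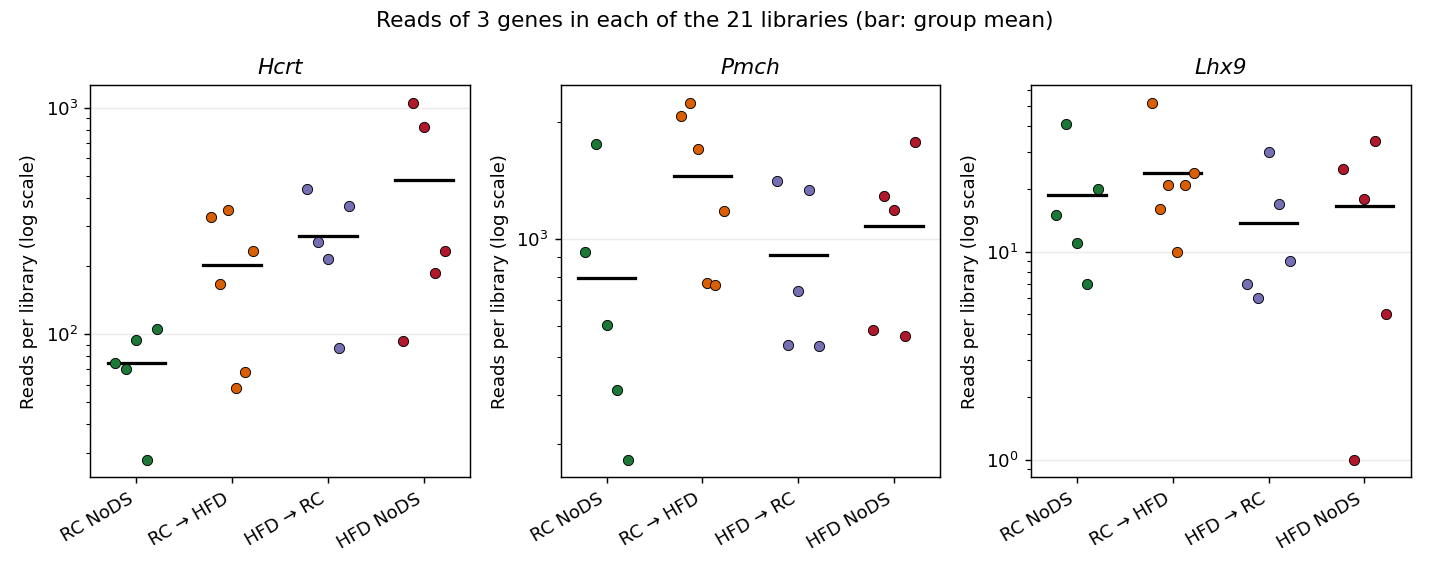
Reads per library (vertical axis, log scale) of *Hcrt*, *Pmch* and *Lhx9* in the 4 diet groups (horizontal axis), with 1 point per library and a bar at the group mean. For *Hcrt*, the RC NoDS points lie between 28 and 105 reads and those of HFD NoDS between 93 and 1051, while *Pmch* and *Lhx9* overlap across the groups.

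The comparison of the 2 groups without a switch asks what lasting HFD does against lasting RC, and it called *Hcrt*. The authors, by contrast, reported *Hcrt* as similar across all diet groups, in their RNA-seq and by RT-qPCR of sequenced and of separate tissue. Their genes called for this pair, found with other statistical packages, did not include *Hcrt*. Genes were called at a Benjamini-Hochberg adjusted p under 0.15 in an edgeR fit of all 21 libraries with a mean for each group, and log2 fold changes below are the second group over the first. The pair had 10 called genes of 12768 (0.0783%), of which 8 were higher and 2 lower with HFD. *Hcrt* rose 6.53-fold (log2 2.71, SE 0.557, 95% confidence interval of the fold 2.96 to 14.4, adjusted p = 0.0513), and it ranked 10 of 12768 by p. The call was lost without RC NoDS replicate 1 (log2 2.71, adjusted p = 0.174), RC NoDS replicate 2 (2.68, 0.244), RC NoDS replicate 5 (2.501, 0.258), HFD NoDS replicate 20 (2.17, 0.289) or HFD NoDS replicate 21 (2.43, 0.226), with a range of 2.17 to 2.97 and of adjusted p from 0.0113 to 0.289 over the 21 libraries left out in turn. It was also lost with limma-voom (2.25, 0.642), with a robust dispersion (2.71, 0.570), with the libraries of these 2 groups alone (2.71, 0.175) and with the share of low genes at 0 reads as a covariate (2.41, 0.999), in a range of adjusted p from 0.0205 to 0.999 over 8 settings.

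After a switch, the comparison of RC → HFD with HFD → RC sets groups with opposite earlier and current diets side by side. It called 1 of 12768 genes (0.00783%), and *Hcrt* was not that gene (log2 0.44, SE 0.494, adjusted p = 1.00). Against RC NoDS, *Hcrt* was 1.46 higher on the log2 scale in RC → HFD (SE 0.531, adjusted p = 0.685) and 1.90 higher in HFD → RC (SE 0.549, adjusted p = 0.206), where 5 genes (0.0392%) and 36 genes (0.282%) were called. HFD NoDS was 1.24 above RC → HFD (SE 0.492, adjusted p = 0.581) and 0.81 above HFD → RC (SE 0.513, adjusted p = 0.716) in *Hcrt*, with 2 genes (0.0157%) and 9 genes (0.0705%) called. In these 5 pairs *Hcrt* did not pass the test, which does not show that its levels were equal. The second-group mean was the higher one in each of them. Without HFD NoDS replicate 20, the last 2 differences were 0.72 (adjusted p = 0.861) and 0.28 (0.943).

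The test across all 4 groups called 19 genes (0.149%), and *Hcrt* ranked 28 of 12768 with an adjusted p of 0.192. Whether the effect of the current diet differs by earlier diet was tested as an interaction, for which 4 genes (0.0313%) were called. The interaction of *Hcrt* was -0.65 (log2, SE 0.729, adjusted p = 0.865). Ordered by mean, *Hcrt* ran from HFD NoDS over HFD → RC and RC → HFD down to RC NoDS. By the adjusted p, only the ends of that order differed, and no neighbours did. Unadjusted, p was 0.0102 for RC NoDS against its neighbour RC → HFD, with a 95% confidence interval of the fold from 1.30 to 5.85, and it was over 0.05 for the other neighbours. The group took up 40.0% of the sum of squares of log2 *Hcrt* values over the 21 libraries, against a median of 15.2% over the genes of the High Filter.

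The group means of *Pmch* had another order than those of *Hcrt*. In RC NoDS the libraries held 928, 1757, 602, 411 and 273 reads of *Pmch* (794 ± 592, n = 5). In RC → HFD the lowest library held 763, the median was 1442 and the highest held 2234 (1454 ± 643, n = 6). RC NoDS replicate 2 lay among the upper RC → HFD libraries, and the 3 lowest RC NoDS libraries lay under all of RC → HFD.

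In HFD → RC the libraries held 1405, 535, 739, 1340 and 534 reads of *Pmch* (911 ± 430, n = 5). Those of HFD NoDS held 585, 1293, 1190, 566 and 1769 (1081 ± 510, n = 5). In both groups 2 libraries lay under the RC NoDS median of 602, and they overlapped with each other and with the other groups. The order of the group means of *Pmch* was RC → HFD, HFD NoDS, HFD → RC and RC NoDS, and no neighbours in it differed beyond the spread between libraries.

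*Pmch* passed in 0 of the 8 edgeR tests. The largest difference was RC → HFD over RC NoDS (log2 0.90, SE 0.377, adjusted p = 0.701), and this was the 1 test with an unadjusted p under 0.05 (0.0240). DESeq2 called *Pmch* in none of the 7 tests for which it gave an adjusted p. Between RC NoDS and HFD NoDS the log2 difference of *Pmch* was 0.47 (SE 0.390, adjusted p = 0.768), a fold of 1.38 with a 95% confidence interval from 0.795 to 2.40, and it ran from 0.22 without HFD NoDS replicate 24 to 0.98 without RC NoDS replicate 2. From RC → HFD to HFD → RC the difference was -0.67 (SE 0.374, adjusted p = 0.979). Its interaction was -0.66 (SE 0.539, adjusted p = 0.787), and the adjusted p across all 4 groups was 0.689.

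*Lhx9* had few reads, and its counts spread widely within groups. In RC NoDS the libraries held 15, 41, 11, 7 and 20 reads (18.8 ± 13.3, n = 5), and in RC → HFD the lowest held 10, the median was 21 and the highest held 52 (24.0 ± 14.6, n = 6). HFD → RC had 7, 6, 30, 17 and 9 reads of *Lhx9* (13.8 ± 10.03, n = 5), and HFD NoDS had 25, 1, 18, 34 and 5 (16.6 ± 13.7, n = 5). All groups overlapped. The library with the most *Hcrt* reads, HFD NoDS replicate 20, had the fewest *Lhx9* reads (1), and the library with the most *Lhx9* reads was RC → HFD replicate 7.

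Over the 15884 genes of the Low Filter, edgeR called 20 across all 4 groups (0.126%), 10 between RC NoDS and HFD NoDS (0.063%) and 2 between RC → HFD and HFD → RC (0.0126%). The remaining pairs had 5 (0.0315%) between RC NoDS and RC → HFD, 25 (0.157%) between RC NoDS and HFD → RC, 1 (0.0063%) between RC → HFD and HFD NoDS, and 4 (0.0252%) between HFD → RC and HFD NoDS. *Lhx9* was called in none of these 7 tests. It had no unadjusted p under 0.05, and DESeq2 did not call it in the 5 of them for which it gave an adjusted p. The differences of *Lhx9* ran from -0.79 (RC → HFD to HFD → RC, SE 0.725, adjusted p = 0.999) to 0.38 (RC NoDS to RC → HFD, SE 0.715, adjusted p = 1.00) on the log2 scale. Between RC NoDS and HFD NoDS the fold was 0.894 with a 95% confidence interval from 0.310 to 2.58, so a change of up to 2.58-fold upward is not excluded by these libraries. The group means of *Lhx9* ran in the order RC → HFD, RC NoDS, HFD NoDS and HFD → RC, and no neighbours differed beyond the spread between libraries.

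The ratio of the peptide genes within a library does not use the library total. A library of RC NoDS held 12.4 *Pmch* reads per *Hcrt* read at the median (2.60 to 25.1), and one of RC → HFD held 8.75 (4.80 to 13.5). The medians were lower with earlier HFD, at 3.22 in HFD → RC (1.45 to 15.4) and 3.03 in HFD NoDS (1.23 to 7.56). The groups overlapped, since RC NoDS replicate 6 held 2.60 and HFD → RC replicate 16 held 15.4.

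As log2 of *Hcrt* over *Pmch*, with 1 read added to each, the means were -3.22 ± 1.25 in RC NoDS, -3.03 ± 0.691 in RC → HFD, -1.80 ± 1.29 in HFD → RC and -1.60 ± 1.19 in HFD NoDS (SD). Exact two-sided permutation tests were run for the 6 pairs of groups. The difference was 1.63 from RC NoDS to HFD NoDS (exact p = 0.0794, adjusted over 6 pairs 0.159), 1.23 from RC → HFD to HFD → RC (exact p = 0.0736, adjusted 0.159) and 1.43 from RC → HFD to HFD NoDS (exact p = 0.0390, adjusted 0.159). From RC NoDS to HFD → RC it was 1.42 (exact p = 0.127, adjusted 0.190). Pairs with the same earlier diet differed by 0.19 (RC NoDS to RC → HFD, exact p = 0.701, adjusted 0.810) and 0.20 (HFD → RC to HFD NoDS, exact p = 0.810, adjusted 0.810). No pair passed the threshold of 0.15. Leaving out HFD → RC replicate 16 took the adjusted p of RC → HFD against HFD → RC to 0.0571 (difference 1.76), and leaving out RC NoDS replicate 6 took that of RC NoDS against HFD NoDS to 0.110 (difference 2.09).

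**Figure D2:**
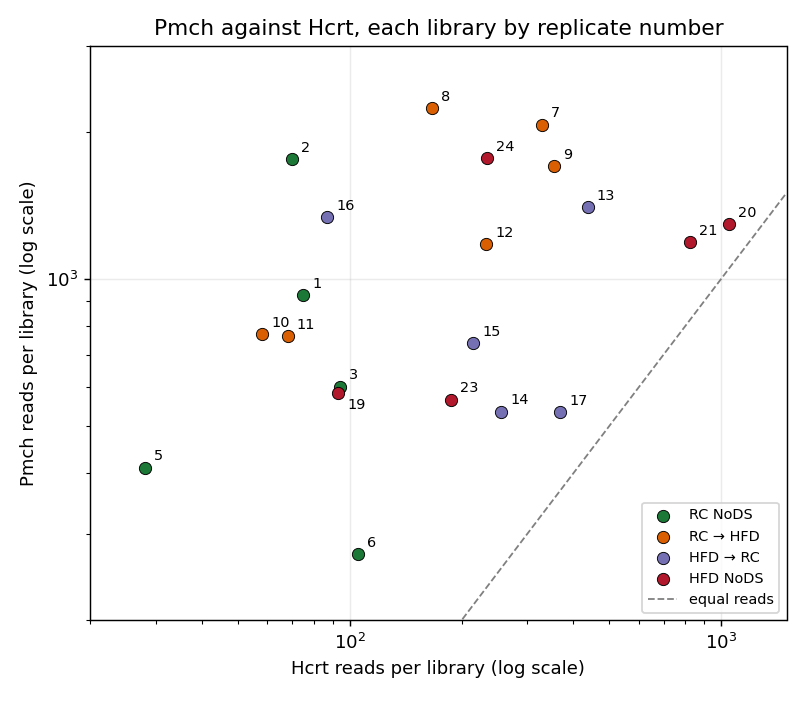
*Pmch* reads (vertical axis, log scale) against *Hcrt* reads (horizontal axis, log scale) in each library, numbered by replicate and coloured by group, with a dashed line at equal reads. All 21 points lie above the line, nearest to it HFD NoDS replicate 20 (1.23 *Pmch* reads per *Hcrt* read) and farthest RC NoDS replicate 2 (25.1).

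Hypocretin and MCH neurons lie close together, and the 3 genes were therefore correlated over libraries after the group means had been removed. *Hcrt* and *Pmch* had a Pearson r of 0.341 over 21 libraries (permutation p = 0.131, adjusted over 3 pairs of genes 0.393) and a Spearman rho of 0.278 (permutation p = 0.224, adjusted 0.672). Without the 2 libraries farthest from the median of the centred *Hcrt* values (HFD NoDS replicates 19 and 20), r was 0.252. *Hcrt* and *Lhx9* had an r of -0.110 (permutation p = 0.633, adjusted 0.703) and a rho of -0.0688 (permutation p = 0.768, adjusted 0.978), and r turned to 0.169 without the same 2 libraries. For *Pmch* and *Lhx9*, r was 0.0875 (permutation p = 0.703, adjusted 0.703) and rho was -0.00649 (permutation p = 0.978, adjusted 0.978), and r turned to -0.0869 without RC NoDS replicates 2 and 6. No pair of the 3 genes passed the threshold, and the sign of both relations with *Lhx9* turned on the removal of 1 library, to 0.0983 for *Hcrt* without HFD NoDS replicate 20, and for *Pmch* to -0.146 without RC NoDS replicate 2 and to -0.00534 without RC → HFD replicate 7. When HFD → RC replicate 16 was left out, where *Pmch* was high and *Hcrt* low, r of *Hcrt* and *Pmch* was 0.469 (permutation p adjusted 0.112).

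RC → HFD is the one group with 6 libraries. Within it, r was 0.805 for *Hcrt* and *Pmch* (exact permutation p = 0.0722), 0.655 for *Hcrt* and *Lhx9* (exact permutation p = 0.100) and 0.490 for *Pmch* and *Lhx9* (exact permutation p = 0.367). Adjusted over the 3 pairs, both relations of *Hcrt* stood at the threshold of 0.15 and not under it, and the third value was 0.367. The rho values were 0.543, 0.543 and 0.0857 (exact permutation p = 0.297, 0.297 and 0.919). In that group, replicates 10 and 11 were low in both peptide genes, with 58 and 68 reads of *Hcrt* beside 771 and 763 of *Pmch*.

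Both peptide genes varied between libraries of the same group more than most genes did. The biological coefficient of variation, the square root of edgeR's dispersion of a gene within groups, was 0.556 for *Hcrt* and 0.420 for *Pmch*, against a median of 0.148 over the 12768 genes of the High Filter. *Hcrt* ranked 58 and *Pmch* 298 of them. Since this measure falls with the mean, each gene was also set beside genes of like level. *Hcrt* was above 99.7% of 2168 such genes (median 0.202) and *Pmch* above 99.9% of 2478 (median 0.116). *Lhx9*, at 0.722, was above 32.7% of 931 genes of like level (median 0.788), so its spread was that of a gene with few reads.

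From the lowest to the highest of all 21 libraries, reads differed 37.5-fold for *Hcrt*, 8.18-fold for *Pmch* and 52-fold for *Lhx9*. A wide spread beside genes of like level was common in the lists. Of the 52 other listed genes of the High Filter, 33 were above 90% of genes of like level, and their median was 97.1%. The coefficient was 0.551 for *Qrfp*, a peptide gene of the same lateral and perifornical area (above 99.0% of genes of like level), and 0.475 for *Avp*, the vasopressin gene (99.5%). It was lower in value for the arcuate genes *Agrp* (0.214) and *Pomc* (0.197), which were still above 98.6% and 98.9% of genes of like level. *Gad1* (0.113) was above 90.5% and *Dlk1* (0.0965) above 78.5%. Where a punch lay is not recorded in the labels, and its part in the spread was not tested.

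**Figure D3:**
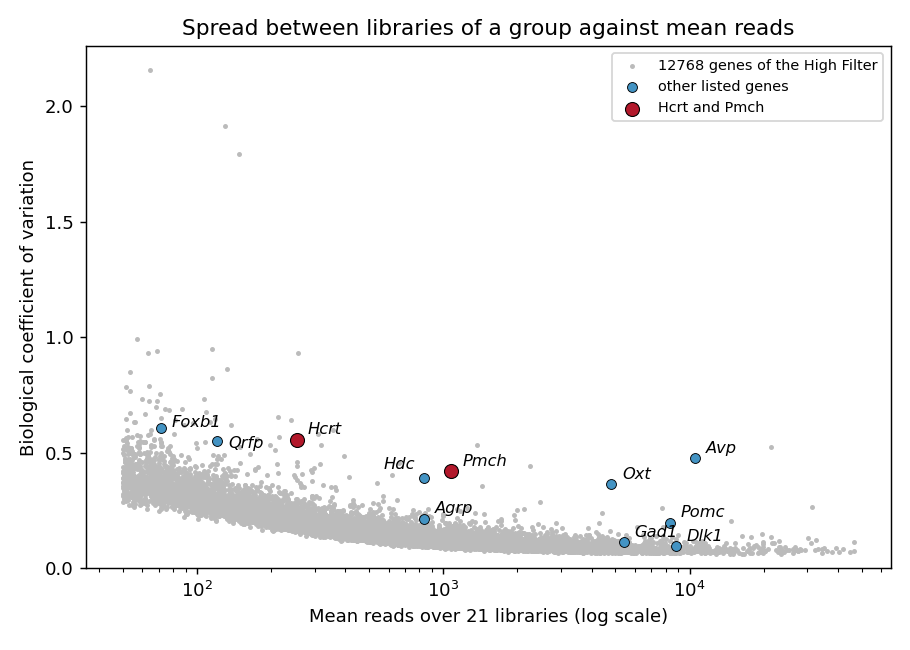
Biological coefficient of variation within groups (vertical axis) against mean reads over the 21 libraries (horizontal axis, log scale) for the 12768 genes of the High Filter, with named genes of the lists marked. *Hcrt* (0.556) and *Pmch* (0.420) stand above nearly all genes of like mean, as do other marked genes such as *Qrfp* (0.551) and *Avp* (0.475), and *Dlk1* (0.0965) lies within the band.

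The authors kept punches by *Agrp* and *Pomc* relative to *Hcrt*, and that relation can be followed in the sequenced libraries. Per length, the mean level of *Agrp* and *Pomc* was above the level of *Hcrt* in every library. It was 33.8 to 136 times the *Hcrt* level in RC NoDS (median 40.5) and 9.88 to 77.5 times in RC → HFD (median 15.9). HFD → RC had 5.91 to 32.2 times (median 16.3) and HFD NoDS 4.12 to 33.9 times (median 13.97). The lowest values, 4.12 and 4.14, belonged to HFD NoDS replicates 21 and 20, the 2 libraries with the most *Hcrt*. *Agrp*, the gene of a hunger-promoting peptide of the arcuate nucleus, was itself lower in HFD NoDS than in RC NoDS (log2 -0.97, SE 0.197, adjusted p = 0.0507), while *Pomc*, which gives most of the mean, differed by 0.39 (SE 0.177, adjusted p = 0.657). The choice of punches was made before pooling and on another measurement, so these values do not show on which side of its limit a punch lay.

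Other markers of hypocretin neurons were not called where *Hcrt* was. Of the 10 genes of the hypocretin neuron list, 8 passed the High Filter, and between RC NoDS and HFD NoDS *Hcrt* was the 1 gene called, beside 10 of all 12768 genes. The median log2 difference of the 8 was 0.04, beside 0.01 over all genes. *Qrfp*, with 18 to 260 reads, was 0.83 higher (SE 0.522, adjusted p = 0.7099), and *Pdyn*, the prodynorphin gene coexpressed in hypocretin neurons and active in many others, was -0.04 (SE 0.0922, adjusted p = 0.935). *Nptx2* was -0.01 (SE 0.144, adjusted p = 0.992) and *Dlk1* -0.02 (SE 0.0808, adjusted p = 0.960). The summed reads of the list without *Hcrt* and *Lhx9* were 16545 to 19887 per library, with *Dlk1* as the most abundant gene. Most of that sum comes from genes that other hypothalamic cells express as well, and no gene of the list was at 0 in any library.

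The MCH neuron list has 5 genes, of which 4 passed the High Filter. *Cartpt*, the gene of the CART peptides made in MCH neurons and in arcuate and other neurons, was called higher in HFD NoDS than in RC NoDS (log2 0.89, SE 0.131, adjusted p = 0.000930) and than in HFD → RC (0.73, SE 0.130, adjusted p = 0.0314). The HFD NoDS libraries held 4823 to 6161 reads of *Cartpt* and the RC NoDS libraries 2266 to 3486. *Tacr3* differed by 0.23 (SE 0.213, adjusted p = 0.790) and *Gad1* by -0.04 (SE 0.0985, adjusted p = 0.939) between RC NoDS and HFD NoDS. The median of the 4 was 0.35. Without *Pmch* the list summed to 6558 to 12581 reads per library, with *Gad1* as its most abundant gene, and *Parpbp* was at 0 in 9 libraries.

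The receptors of both peptides are expressed in target cells over much of the brain. *Hcrtr1* had 123 to 392 reads per library, *Hcrtr2* had 82 to 292 and *Mchr1* had 218 to 357, and together they summed to 608 to 928 reads. Between RC NoDS and HFD NoDS edgeR and DESeq2 called 0 of the 3, and 0 had an unadjusted p under 0.05. Of all 12768 genes, edgeR called 10 in that pair and 946 had an unadjusted p under 0.05. The log2 differences were 0.29 (SE 0.256) for *Hcrtr1*, -0.05 (SE 0.230) for *Hcrtr2* and -0.03 (SE 0.140) for *Mchr1*, with a median of -0.03. The range of the receptor genes over the libraries was narrow beside the 37.5-fold range of *Hcrt*.

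Other genes of the lateral hypothalamus and zona incerta, such as *Nts*, *Gal* and *Pvalb*, summed to 1278 to 2488 reads, with *Gal* as the most abundant, and *Lhx6* was at 0 in 3 libraries. All 5 HFD NoDS libraries (1959 to 2488) lay above all 5 RC NoDS libraries (1482 to 1869) in this sum, as *Hcrt* did in 4 of 5. This was the one list and pair of groups among the 13 lists whose sums did not overlap. EdgeR called 0 of its 4 tested genes between those groups, beside 10 of all 12768 genes, and DESeq2 called 0 of the 4. In edgeR, 2 of the 4 had an unadjusted p under 0.05, beside 946 of all 12768 genes. These were *Gal* (log2 0.48, SE 0.14998, adjusted p = 0.640) and *Pvalb* (1.10, SE 0.415, adjusted p = 0.640). HFD NoDS replicate 20 held 151 reads of *Pvalb*, and the other libraries of that group held 43 to 53. *Nts* ran from 127 to 240 reads in HFD NoDS and from 127 to 238 in RC NoDS. The median of the 4 was 0.35. The part of this list in the result for *Hcrt* was not tested.

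Neighbouring regions were followed by lists of their own genes, and their sums varied from library to library. The arcuate genes summed to 9560 to 19503 reads (*Pomc* the most abundant), the ventromedial genes to 2262 to 6409 (*Adcyap1*) and the dorsomedial genes to 369 to 915 (*Ppp1r17*). The paraventricular genes summed to 5771 to 32554 (*Avp*), the mammillary and posterior genes to 289 to 1934 (*Hdc*) and the thalamus genes to 936 to 1431 (*Ntng1*). These 6 lists overlapped between RC NoDS and HFD NoDS, where *Hcrt* was called. *Crh* was at 0 in 7 libraries, *Lmx1a* and *Barhl1* in 5 each and *Foxa1* in 4.

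Tissue from outside the hypothalamus was looked for in the same way. The telencephalon genes summed to 543 to 1163 reads, nearly all from *Ppp1r1b*, and the defining markers were at or near 0, with *Neurod6* at 0 in 17 libraries, *Slc17a7* and *Tbr1* in 10 each and *Emx1* in 5. A count of 0 allows up to 3 reads, or 0.183 CPM (reads scaled to a common library total), by counting error alone. The choroid plexus genes summed to 235 to 639 (*Kl* the most abundant), with *Otx2* at 0 in 11 libraries and *Kcnj13* in 5. *Ttr* (up to 74 reads) and *Folr1* (up to 96) were at 0 in 1 library each. The oligodendrocyte and fibre tract genes summed to 32809 to 126423 (*Mbp*). HFD → RC replicate 14 had the highest of these last sums and 256 reads of *Hcrt*, and RC NoDS replicate 1 had the lowest and 75 reads.

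The medians of the log2 differences between RC NoDS and HFD NoDS were -0.05 for the arcuate list, 0.18 for the ventromedial, -0.32 for the dorsomedial, 0.01 for the paraventricular, 0.05 for the mammillary and -0.11 for the thalamus list. They were 0.08 for the 1 tested telencephalon gene, -0.34 for the 1 tested choroid plexus gene and 0.58 for the oligodendrocyte list. Over all 13 lists, 54 of 73 genes were in the High Filter, and 5 of them were called in that pair, where 10 of all 12768 genes were (0.0783%). Nothing particular to the lists is read from this count, since they were not chosen blind to these data. Of the 5, *Hcrt*, *Cartpt* and *Trh* (log2 1.79, adjusted p = 2.36e-07) were higher in HFD NoDS and *Agrp* and *Npy* (-1.26, adjusted p = 7.79e-05) lower. *Hcrt* had the largest fold and the largest SE of these 5. Another 15 listed genes, *Lhx9* among them, were in the Low Filter only, where edgeR called 0 of them in that pair, with 0 at an unadjusted p under 0.05 and 0 called by DESeq2, and 4 were under both filters. Over all 15884 genes of the Low Filter, edgeR called 10 in that pair, with 1022 at an unadjusted p under 0.05. The part of these lists in the result for *Hcrt* was not tested.

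The listed genes called in the other pairs did not include *Hcrt*. EdgeR called 1 of the 54 listed genes between RC → HFD and HFD → RC (*Npy*), 3 between RC NoDS and RC → HFD (*Agrp*, *Npy* and *Trh*), 4 between RC NoDS and HFD → RC (*Mbp*, *Mobp* and *Trh* among them) and 2 between HFD → RC and HFD NoDS (*Cartpt* and *Npy*). In the same order, it called 1, 5, 36 and 9 of all 12768 genes. Between RC → HFD and HFD NoDS it called 0, with 6 at an unadjusted p under 0.05 and 1 called by DESeq2 (*Trh*), beside 956 and 32 of all 12768 genes. For the interaction it called 0, with 15 at an unadjusted p under 0.05 and 2 called by DESeq2, beside 1129 and 116 of all 12768. Across all 4 groups it called 5 (*Agrp*, *Cartpt*, *Mobp*, *Npy* and *Trh*), beside 19 of all 12768 genes, and DESeq2 called these 5 and *Hcrt* (adjusted p = 0.101). Between RC NoDS and HFD → RC, *Mobp*, an oligodendrocyte gene, was higher in HFD → RC (log2 1.19, SE 0.239, adjusted p = 0.0614).

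The libraries also differed in how many low genes were seen at all. Of the 3116 genes averaging 5 to 50 reads, the share at 0 reads was 1.12% to 7.22% in RC NoDS, 2.31% to 22.4% in RC → HFD, 5.68% to 31.9% in HFD → RC and 7.70% to 32.9% in HFD NoDS. Every HFD NoDS library lay above every RC NoDS library. The library with the most *Hcrt*, HFD NoDS replicate 20, had the highest share, while HFD NoDS replicate 21, second in *Hcrt* with 823 reads, had 14.6% and RC → HFD replicate 12, with 22.4%, had 233 reads of *Hcrt*. With this share as a covariate the *Hcrt* difference between RC NoDS and HFD NoDS was 2.41 against 2.71 without it, and it was not called (adjusted p = 0.999). With the covariate, 6 genes were called in that pair. The share and the group cannot be told apart in that pair.

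The genes most like each of the 3 in their pattern over the 21 libraries were taken from the High Filter by Pearson r after removal of the group means, as a description. The 10 nearest to *Hcrt* were *Tagln*, *Sharpin*, *Cstf2t*, *Scpep1*, *Mrps24*, *Kat2b*, *St3gal4*, *Mri1*, *Sirt7* and *1110018N20Rik*, with r from 0.820 down to 0.722. Without removal of the group means the same genes had r with *Hcrt* from 0.383 (*Tagln*) to 0.667 (*Scpep1*). None of these 10 is in a fixed list, and the median r of all genes with *Hcrt* was -0.0130.

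For *Pmch* the 10 nearest were *Klhl13*, *Dnajb14*, *Paip2*, *Atl1*, *Nicn1*, *Tspyl4*, *Kpna2*, *Cadps*, *Usp15* and *Pak1*, with r from 0.854 to 0.792 and, without removal of the group means, from 0.440 (*Kpna2*) to 0.742 (*Dnajb14*). For *Lhx9* they were *Gnpnat1*, *Rab39b*, *Dlx6*, *Cidea*, *Acsl6*, *Icmt*, *Cbfb*, *Map6d1*, *Arid4b* and *Alms1*, with r from 0.747 to 0.675 and, without removal, from 0.479 (*Map6d1*) to 0.738 (*Rab39b*). The nearest genes of *Hcrt*, *Pmch* and *Lhx9* had no gene in common. All of these r values share the 21 libraries and are the highest over the genes of the High Filter, so they say nothing of shared function or control.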

How the data were processed

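The authors merged reads with Picard 2.7.1, aligned them to mm9 with STAR 2.5.1b, removed ribosomal RNA and mitochondrial reads, re-sampled all libraries to a common depth and deposited counts of reads per gene. The counts were used unscaled. Tests used edgeR 4.0.16 (TMM, quasi-likelihood, 1 mean per group) with R 4.3.3, and limma 3.58.1 (voom) and DESeq2 1.42.0 as alternatives. Adjustment of p covered every gene in a test. Ratios, correlations (log2 of CPM plus 1) and figures came from numpy 2.4.6, scipy 1.17.1, pandas 2.3.3 and matplotlib 3.10.9 under Python 3.11.15. The tests were checked on simulated data. The genes and the 13 lists (hypocretin neuron, MCH neuron, receptors, other lateral hypothalamus, arcuate, ventromedial, dorsomedial, paraventricular, mammillary, thalamus, telencephalon, choroid plexus and oligodendrocyte) were chosen with earlier results of these data known. Named are the 3 genes, any gene of the lists, and for each of the 3 the 10 genes of the High Filter with the highest r.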

Additional observations from a re-analysis of the deposited data

Results flagged for a closer look

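In 5 cases the highest or lowest library of a group stood apart from the rest by Dixon's test at 95%. *Lhx9* had 52 reads in RC → HFD replicate 7, with 24 in the next library. The arcuate sum was 9560 reads in RC → HFD replicate 8, with 14032 in the next library. The ventromedial sum was 6409 reads in HFD → RC replicate 15, with 4162 next. The thalamus sum was 1431 reads in RC NoDS replicate 1 (next 1138) and 937 reads in HFD NoDS replicate 19 (next 1105). Chance gives such a value in 5% of groups, or 3.4 of the 68 groups looked at. No *Hcrt* or *Pmch* value stood apart in this way.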

How the results depend on the processing

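Differences are log2, with adjusted p in parentheses. Of 230 values of *Hcrt* under other settings, 214 kept their direction and side of the threshold, as did 229 of 230 for *Pmch*, 208 of 222 for *Lhx9*, 123 of 138 for the ratio and 68 of 75 for the correlations. The cause was not tested for the exceptions, which follow.

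For *Hcrt*, RC NoDS against HFD NoDS lost its call with limma-voom (2.25, 0.642), robust dispersion (2.71, 0.570), the zero share as covariate (2.41, 0.999) and only the 2 groups (2.71, 0.175), and ran from 2.17 to 2.97 with each library left out. RC NoDS against HFD → RC passed with only the 2 groups (1.90, 0.118), and ran from 1.66 to 2.12, passing without HFD → RC replicate 16 (2.12, 0.0727) or HFD NoDS replicate 20 (1.90, 0.108). The adjusted p across all 4 groups passed with DESeq2 (0.101) and no filter (0.0884), and ran from 0.0698 without HFD → RC replicate 16 to 0.437, passing also without HFD NoDS replicate 19 (0.0770). Differences of *Hcrt* that were not called moved over 1.5 times without some libraries. They ran from 0.72 (without HFD NoDS replicate 20) to 1.51 from RC → HFD to HFD NoDS, from 0.28 (without HFD NoDS replicate 20; 0.53 without replicate 21) to 1.08 from HFD → RC to HFD NoDS, with 0.43 under limma-voom, from 0.20 (without HFD → RC replicate 13) to 0.67 (without RC → HFD replicate 9) from RC → HFD to HFD → RC, and from -1.18 (without HFD NoDS replicate 20) to -0.38 (without HFD NoDS replicate 19) for the interaction.

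*Lhx9* reversed with limma-voom in HFD → RC against HFD NoDS (-0.18), and with the zero share in RC NoDS against HFD NoDS (0.55) and against HFD → RC (0.38). Without reversing, it moved over 1.5 times with limma-voom in RC NoDS against HFD NoDS (-0.60), RC → HFD against HFD NoDS (-1.04) and the interaction (-0.61), with the zero share in RC NoDS against RC → HFD (0.94) and the interaction (-0.77), and without TMM in the interaction (-0.09). Its leave-one-out ranges were -0.59 to 0.33 (RC NoDS to HFD NoDS), -0.92 to 0.0828 (RC NoDS to HFD → RC), -0.18 to 0.76 (HFD → RC to HFD NoDS), -0.62 to 0.38 (interaction), 0.00195 (without RC → HFD replicate 7) to 0.87 (without RC NoDS replicate 2) from RC NoDS to RC → HFD, -1.30 (without HFD → RC replicate 15) to -0.41 (without RC → HFD replicate 7) from RC → HFD to HFD → RC, and -0.97 to -0.16 from RC → HFD to HFD NoDS. *Pmch* ran from -0.00213 (without HFD NoDS replicate 24) to 0.45 from HFD → RC to HFD NoDS. It ran from 0.22 (without HFD NoDS replicate 24) to 0.98 (without RC NoDS replicate 2) from RC NoDS to HFD NoDS, with 0.92 under the zero share, from 0.68 to 1.41 (without RC NoDS replicate 2) from RC NoDS to RC → HFD, from 0.00539 to 0.74 (without RC NoDS replicate 2) from RC NoDS to HFD → RC, with 0.61 under the zero share and 0.39 with limma-voom, from -0.68 (without HFD NoDS replicate 24) to -0.27 from RC → HFD to HFD NoDS, with -0.19 under the zero share, and from -1.17 (without RC NoDS replicate 2) to -0.44 (without RC NoDS replicate 6) for the interaction.

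The log2 ratio ran, with each library left out, from 1.27 to 2.09 (RC NoDS to HFD NoDS), 0.91 to 1.76 (RC → HFD to HFD → RC), 1.07 to 1.96 (RC NoDS to HFD → RC), 1.11 to 1.76 (RC → HFD to HFD NoDS), -0.16 to 0.66 (RC NoDS to RC → HFD) and -0.33 to 0.53 (HFD → RC to HFD NoDS). Some passed without RC NoDS replicate 6, HFD → RC replicate 16 or HFD NoDS replicate 24. The correlation of *Hcrt* and *Lhx9* reversed without the 2 farthest libraries (0.169) and within RC → HFD (0.655), and that of *Pmch* and *Lhx9* without the 2 farthest (-0.0869). Their leave-one-out ranges were -0.246 to 0.0983 and -0.146 to 0.214, and that of *Hcrt* and *Pmch* 0.262 to 0.469.

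Of 230 numbers of genes called, 102 moved over 1.5 times. With DESeq2 the pairs in the order of the text had 17, 5, 96, 147, 32 and 44, the interaction 116 and all 4 groups 133. In RC NoDS against RC → HFD, DESeq2's own filter on the mean gave 44 of the 54 listed genes, *Hcrt* and *Pmch* among them, no adjusted p. The Low Filter gave 2 (RC → HFD against HFD → RC), 1 (RC → HFD against HFD NoDS), 4 (HFD → RC against HFD NoDS) and 0 (interaction, 1296 at an unadjusted p under 0.05, DESeq2 116 over the High Filter). No filter gave 3, 5 and 5 for those pairs and 31 for all 4 groups. Without TMM, RC NoDS against HFD → RC had 10 and the interaction 2, and with limma-voom 7 and 15. With only the 2 groups, RC NoDS against RC → HFD had 24, RC → HFD against HFD NoDS 4 and HFD → RC against HFD NoDS 1. Robust dispersion gave 0 for RC → HFD against HFD → RC (667 at an unadjusted p under 0.05, DESeq2 5), 2 for HFD → RC against HFD NoDS and 12 for all 4 groups. The zero share gave 6 (RC NoDS against HFD NoDS), 1 (RC NoDS against HFD → RC), 1 (RC → HFD against HFD NoDS), 15 (HFD → RC against HFD NoDS), 33 (interaction) and 9 (all 4 groups).

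With each library left out, the number was 5 (without RC NoDS replicate 1) to 14 (without RC NoDS replicate 6) for RC NoDS against HFD NoDS, 1 to 41 (without HFD → RC replicate 16) for RC → HFD against HFD → RC, 4 to 11 (without HFD NoDS replicate 20) for RC NoDS against RC → HFD, 1 (without RC NoDS replicate 1, 2 or 5 or HFD → RC replicate 13 or 14) to 205 (without HFD → RC replicate 16) for RC NoDS against HFD → RC, 1 to 31 (without HFD NoDS replicate 19) for RC → HFD against HFD NoDS, 1 (without HFD → RC replicate 15 or 17 or HFD NoDS replicate 23) to 13 (without RC → HFD replicate 8) for HFD → RC against HFD NoDS, 0 (13 libraries, with 934 to 1213 genes at an unadjusted p under 0.05) to 124 (without HFD NoDS replicate 20) for the interaction and 9 to 80 (without HFD → RC replicate 16) for all 4 groups.

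No paired analysis was possible because each library has a replicate number of its own and none is shared between groups. The punches did not aim at the lateral hypothalamus, their position is not in the files, and libraries pool 2 mice, so values of single mice are not known. Punches were kept partly by *Hcrt*. *Lhx9* had few reads and varied between libraries (biological coefficient of variation 0.722), and smaller changes of it were not detectable in these libraries. Reads carry no molecular identifiers, so a count of 0 and its limit cover counting error only. Whether *Pmch* reads were assigned by strand is not stated.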
